A study of Mus musculus with 374 samples.

Results

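The classical class I heavy chain genes H2-K1 and H2-D1, the light chain gene B2m, the transporter and tapasin genes Tap1, Tap2 and Tapbp, and the chaperone genes Calr and Pdia3 were followed across the sorted mouse blood cells of a CEL-seq2 dataset. These 8 genes were chosen by name out of 19829 rows of mouse genes, and all 8 were found in the count table. Single cells from 1 female C57BL/6 mouse aged 10 to 13 weeks, with no treatment given in the labels, were sorted into 1 plate. The groups were 44 B lymphocytes (B220+, low FSC-A), 96 granulocytes (Mac1+ Gr1+), 96 erythroblasts (Ter119+ CD44+, mid to high FSC-A) and 95 progenitor/stem cells (Lin- Kit+ Sca1+) from the bone marrow, and 43 T lymphocytes (CD3+, low FSC-A) from the thymus. Each population is 1 sample of 1 mouse and took its own rows of the plate, so no test was made and population and plate position cannot be told apart. Intervals are 95% intervals for counting error only.

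Class I molecules display peptides from the inside of a cell to CD8+ T cells. A heavy chain and beta-2 microglobulin, the B2m product, are assembled in the endoplasmic reticulum, where the transporter made of the Tap1 and Tap2 products brings in peptides cut by the proteasome. Tapasin (Tapbp), calreticulin (Calr) and the disulphide isomerase ERp57 (Pdia3) hold the empty molecule at the transporter until a peptide is bound. Nucleated blood cells carry class I at the surface, and maturing red cells lose most of it.

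The UMIs on mouse genes numbered 135808 in B lymphocytes, 200396 in T lymphocytes, 403506 in granulocytes, 666728 in erythroblasts and 834812 in progenitor/stem cells, and medians per well ran from 3028.5 to 7959. No cell barcode was shared between wells. Each of the 5 marker lists was highest in its own population, and its level in the other populations was 0.985% to 11.8% of that. The granulocytes also held 541 UMIs (1341 CPM) on a list of 5 monocyte and macrophage genes (Csf1r, Ccr2, F13a1, C1qa and C1qb, of which C1qa was at 0), against 16.5 to 54.9 CPM in the other populations. In 4 B lymphocyte wells the fluorescence for Gr1 or CD3, which are not part of the B lymphocyte gate, was above that of the lowest granulocyte (736) or T lymphocyte (4889), and of these well A8 had 11.5% of its UMIs on granulocyte markers. Levels are given as CPM, that is, UMIs scaled to the total on mouse genes. Haemoglobin genes took 23.5% of these UMIs in erythroblasts and S100a8 and S100a9 took 9.73% in granulocytes, so the scale matters: with TMM factors every log2 ratio to the progenitor/stem cells moves up by 0.86 in erythroblasts, 0.77 in granulocytes, 0.11 in B lymphocytes and 0.02 in T lymphocytes. The median log2 ratio over all genes with at least 50 UMIs in the pair was -0.73, -0.76, -0.44 and -0.22 in the same order, and ratios are set against it below.

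**Figure D1:**
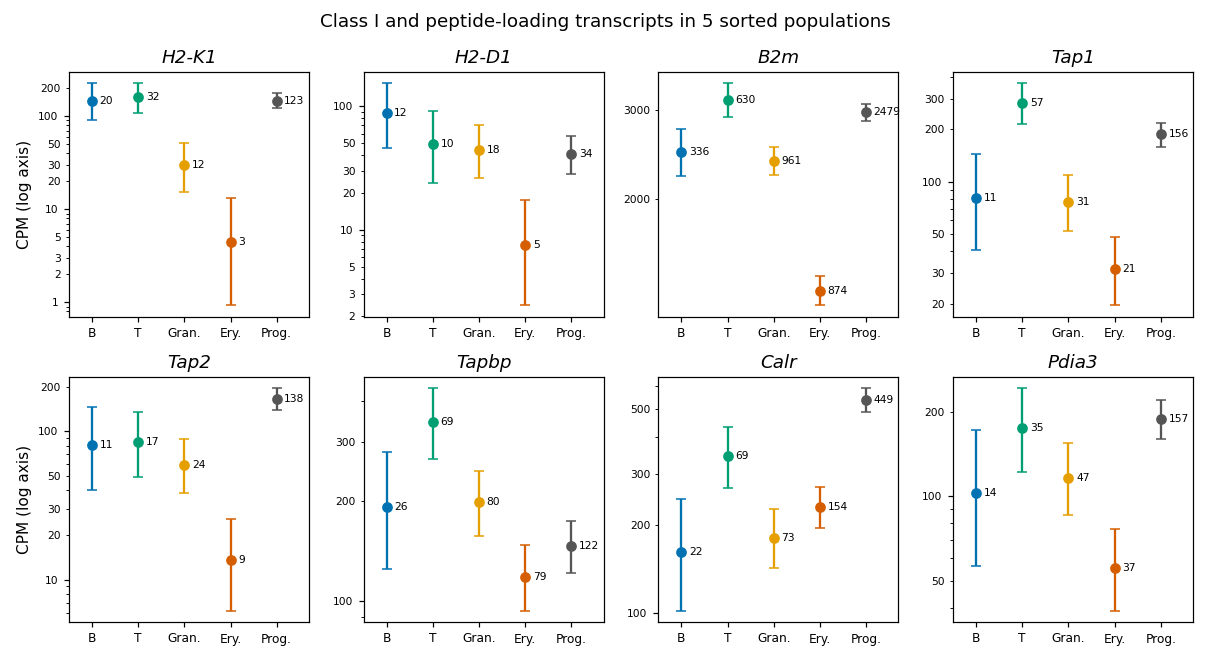
Level of each member in CPM (log axis) in B lymphocytes (B), T lymphocytes (T), granulocytes (Gran.), erythroblasts (Ery.) and progenitor/stem cells (Prog.), with the summed UMIs beside each point and bars for 95% exact Poisson intervals. In CPM the erythroblasts are lowest for every member but Calr, with 3 UMIs of H2-K1 and 874 of B2m.

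The heavy chains were high in lymphocytes and progenitor/stem cells, intermediate in granulocytes and close to the floor in erythroblasts. H2-K1 (ENSMUSG00000061232, the K heavy chain, chr17:33996017-34000347, reverse strand in GENCODE M21, GRCm38) stood at 160 CPM in T lymphocytes (32 UMIs), 147 in progenitor/stem cells (123 UMIs), 147 in B lymphocytes (20 UMIs), 29.7 in granulocytes (12 UMIs) and 4.50 in erythroblasts (3 UMIs). The first 3 populations did not differ beyond counting error, the granulocytes were 4.95-fold below the B lymphocytes (interval 2.31 to 11.1), and the erythroblasts were 6.61-fold below the granulocytes (1.78 to 36.5). H2-D1 (ENSMUSG00000073411, the D heavy chain, chr17:35262730-35267499, forward strand) stood at 88.4 CPM in B lymphocytes (12 UMIs), 49.9 in T lymphocytes (10 UMIs), 44.6 in granulocytes (18 UMIs), 40.7 in progenitor/stem cells (34 UMIs) and 7.50 in erythroblasts (5 UMIs). For H2-D1 none of the first 4 populations differed from its neighbour in this order beyond counting error, and the erythroblasts were 5.43-fold below the progenitor/stem cells (2.11 to 17.8). In granulocytes the 2 genes thus parted: the log2 ratio to the progenitor/stem cells was -2.31 (-3.30 to -1.45) for H2-K1 and 0.13 (-0.78 to 1.00) for H2-D1, and the intervals did not overlap.

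The 2 heavy chain genes are similar over most of their coding sequence, with 91.5% identity over 1077 aligned bases. Reads from identical stretches there could thus be split between them. Counts come from the 3' end, and of the 50-base words in the last 500 bases 0.443% were shared with another gene for H2-K1 and 9.53% for H2-D1. The words of H2-K1 were shared with H2-D1 alone. Those of H2-D1 were shared with 80 other genes, led by AC132307.5, Adsl, Kcnk4 and Nmrk1. In the other 6 members none was shared. Upstream of their starts the 2 genes were also alike, with 91.0% identity over 177 aligned bases in the RefSeq windows of 250 bases (GRCm38.p6). The stretch shown here is where both hold a kB-type sequence (GGGATTCCCC) followed by an interferon-type sequence (GAANNGAAA, read on the other strand), each in capitals. It lies at chr17:34000429-34000457 on the reverse strand for H2-K1 and at chr17:35262924-35262952 on the forward strand for H2-D1.
H2-K1: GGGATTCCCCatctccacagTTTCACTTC
H2-D1: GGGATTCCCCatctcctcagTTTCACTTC
Counted from 1 at the left end, the single difference is A17T (H2-K1 base first). These letters were searched only after the windows had been seen. The kB-type letters were copied from the H2-K1 window itself, so its match was fixed in advance, and the H2-D1 window is alike. The shares below are thus a description and no support for a shared element. On either strand, the kB-type letters are in 0.0852% of all 32851 RefSeq windows and the interferon-type letters in 6.31%. In H2-D1 the window lies inside an exon of the GENCODE annotation, and the RefSeq start is 364 bases from the GENCODE one. The H2-K1 window (chr17:34000348-34000597, reverse strand) is shown whole, with the same letters in capitals.
H2-K1: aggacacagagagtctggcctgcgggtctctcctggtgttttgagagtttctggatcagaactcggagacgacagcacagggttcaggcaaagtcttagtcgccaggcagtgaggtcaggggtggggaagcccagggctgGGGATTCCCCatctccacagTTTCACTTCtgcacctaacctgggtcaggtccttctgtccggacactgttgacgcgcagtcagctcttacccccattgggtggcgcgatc

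Together the heavy chains reached 236 CPM in B lymphocytes, 210 in T lymphocytes, 188 in progenitor/stem cells, 74.3 in granulocytes and 12.0 in erythroblasts. The log2 ratio to the progenitor/stem cells was -3.97 (interval -5.21 to -2.96, 8 against 157 UMIs) in erythroblasts, a 15.7-fold lower level, and it lay between -4.17 and -3.00 under the other scalings to mouse genes. Set against the median of all genes it was -3.24. In granulocytes the ratio was -1.34 (-1.95 to -0.77), or -0.58 against the median of all genes. In the B and T lymphocytes it was 0.33 (-0.27 to 0.88) and 0.16 (-0.37 to 0.66), not beyond counting error, and in T lymphocytes it was -0.003 as the mean over wells.

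In erythroblasts H2-K1 stood at 3.05% of its level in progenitor/stem cells and H2-D1 at 18.4%. The marker lists of the other 4 populations served as a measure of background. In erythroblasts those of T lymphocytes, granulocytes and B lymphocytes stood at 0.985%, 1.13% and 1.27% of their own level, and that of progenitor/stem cells at 3.83%. H2-K1, 32.7-fold below the progenitor/stem cells (10.9 to 161), lay above the first 3 lists and below the last. Its 3 UMIs cannot be told apart from background, and neither expression nor its absence is read from them. After each well was thinned to 1000 UMIs, 0 of 95 erythroblast wells had a UMI of H2-K1 (exact upper limit 3.81%, or 3.16% by the 3 counts that a count of 0 allows, as a share of wells with a UMI), against 13.7% (interval 7.49% to 22.3%) of the progenitor/stem cell wells, 16.3% (6.81% to 30.7%) of the B lymphocyte wells, 14.3% (5.43% to 28.5%) of the T lymphocyte wells and 5.32% (1.75% to 12.0%) of the granulocyte wells. Unthinned, the shares were 3.13% of 96 erythroblast wells and 65.3% of 95 progenitor/stem cell wells, at median depths of 6113.5 and 7959 UMIs. In these sorted populations, fewer molecules per cell and a smaller share of cells with the transcript cannot be told apart at this depth.

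B2m varied far less than the heavy chains it pairs with. Its level (ENSMUSG00000060802, chr2:122147686-122153083, forward strand) was 3144 CPM in T lymphocytes (630 UMIs), 2970 in progenitor/stem cells (2479 UMIs), 2474 in B lymphocytes (336 UMIs), 2382 in granulocytes (961 UMIs) and 1311 in erythroblasts (874 UMIs). The T lymphocytes and the progenitor/stem cells did not differ beyond counting error, nor did the B lymphocytes and the granulocytes, while the erythroblasts were 1.82-fold below the granulocytes (1.66 to 1.99). From highest to lowest B2m spanned 2.40-fold (2.16 to 2.66), against 19.6-fold (8.86 to 49.3) for the heavy chains. The log2 ratio of B2m to the progenitor/stem cells was -1.18 (-1.29 to -1.07) in erythroblasts, where it was lower under each of 5 scalings to mouse genes (-1.32 to -0.21). The ratio was -0.32 in granulocytes, -0.26 in B lymphocytes and 0.08 in T lymphocytes, and these 3 directions depend on the scale: they turned to 0.61 and 0.07 by the median of ratios in the first 2, and to -0.12 as the mean over wells in T lymphocytes.

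The upstream window of B2m is shown because it is the 1 member window that holds the longer interferon-response letters, GAAA and GAAA again after 2 bases of any kind, found in 2.98% of all windows on either strand. They are in capitals, at 139 to 130 bases before the start, in chr2:122147437-122147685 on the forward strand (RefSeq, GRCm38.p6).
B2m: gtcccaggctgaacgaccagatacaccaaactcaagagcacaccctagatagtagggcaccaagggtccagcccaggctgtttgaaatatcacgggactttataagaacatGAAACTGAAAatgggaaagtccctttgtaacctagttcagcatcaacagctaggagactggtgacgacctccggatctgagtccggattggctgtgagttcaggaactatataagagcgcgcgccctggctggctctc
Of the 7 members with a window, Tap2 being the other, none held the NF-kB letters GGGANTTCC (1.43% of all windows), 5 held TGACG (17.8%) and 7 held CCAAT (33.8%). The windows of Tap1, Tapbp and Pdia3, like that of H2-D1, lie inside exons of the GENCODE annotation. The RefSeq start of Tapbp is 3579 bases from the GENCODE start.

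B2m was also the member that could be followed cell by cell. Per well, it ran from 541 to 7926 CPM with a median of 2251 in B lymphocytes, from 0 to 6805 with a median of 2628 in T lymphocytes, and from 0 to 5542 with a median of 2109 in granulocytes. The erythroblast wells ran from 0 to 4632 CPM with a median of 1114, and the progenitor/stem cell wells from 1415 to 7988 with a median of 3127. The ranges of all 5 populations overlap. At least 1 UMI of B2m was found in 94.8% to 100% of the wells of each population, and after thinning to 1000 UMIs in 68.4% (58.1% to 77.6%) of the erythroblast wells against 86.0% to 95.2% of the others. The variance of its share over wells was 2.45 to 3.43 times the variance from counting alone. For the other 7 members this ratio was 0.612 to 1.91, so that at a few UMIs per well most of their spread was that of counting. Across the wells of a population with at least 1000 UMIs, and counting each pair of the 4 member groups, the Pearson correlation of shares lay between -0.25 and 0.32 (n = 42 to 95 wells). Shares of 1 well have a common denominator, and such weak values in sparse counts are no finding.

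**Figure D2:**
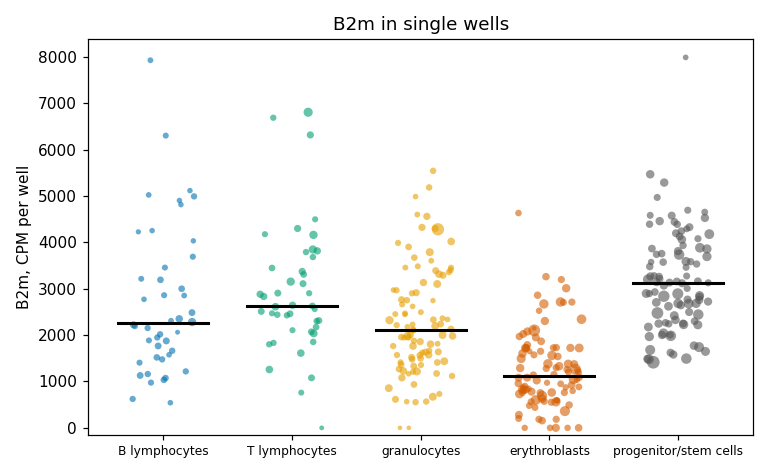
B2m in CPM in each of the 374 wells by population. Point area grows with the UMIs of the well and black lines are medians, which run from 1114 CPM in erythroblasts to 3127 in progenitor/stem cells, with overlapping ranges.

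Per 100 UMIs of B2m the heavy chains gave 9.52 UMIs (interval 6.41 to 13.7) in B lymphocytes, 6.67 (4.76 to 9.12) in T lymphocytes, 6.33 (5.36 to 7.44) in progenitor/stem cells, 3.12 (2.09 to 4.49) in granulocytes and 0.915 (0.394 to 1.81) in erythroblasts. This ratio of 2 counts from the same wells does not depend on the scaling. It was 2.03-fold lower in granulocytes and 6.92-fold lower in erythroblasts than in progenitor/stem cells. The intervals of both kinds of lymphocyte and of the progenitor/stem cells overlapped. Per 100 UMIs of B2m, Tap1, Tap2 and Tapbp gave 22.7 UMIs (18.8 to 27.3) in T lymphocytes, 16.8 (15.1 to 18.6) in progenitor/stem cells, 14.3 (10.3 to 19.4) in B lymphocytes, 14.0 (11.6 to 16.8) in granulocytes and 12.5 (10.1 to 15.2) in erythroblasts. Calr and Pdia3 gave 24.4 UMIs (22.3 to 26.7) in progenitor/stem cells, 21.9 (18.6 to 25.6) in erythroblasts, 16.5 (13.3 to 20.3) in T lymphocytes, 12.5 (10.2 to 15.1) in granulocytes and 10.7 (7.38 to 15.1) in B lymphocytes. The sum in erythroblasts was mostly Calr, whose log2 ratio to the progenitor/stem cells was -1.22, while Pdia3 was at -1.76 and B2m at -1.18.

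**Figure D3:**
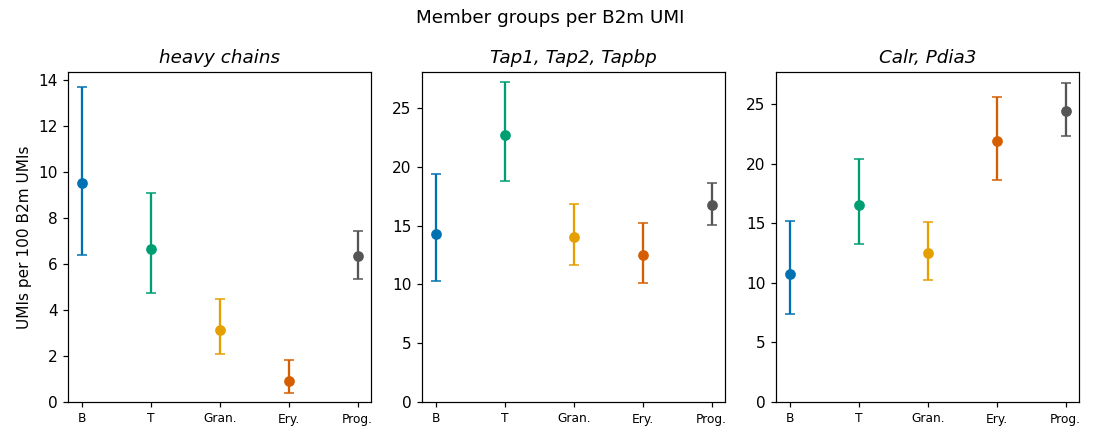
UMIs of each member group per 100 UMIs of B2m in B lymphocytes (B), T lymphocytes (T), granulocytes (Gran.), erythroblasts (Ery.) and progenitor/stem cells (Prog.), with bars for 95% exact intervals. The heavy chains run from 9.52 in B lymphocytes to 0.915 in erythroblasts, while Calr and Pdia3 are at 21.9 in erythroblasts.

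The transporter genes and tapasin were highest in T lymphocytes as a group, but Tap1, Tap2 and Tapbp did not share 1 pattern. Tap1 (ENSMUSG00000037321, chr17:34187553-34197225, forward strand) stood at 284 CPM in T lymphocytes (57 UMIs), 187 in progenitor/stem cells (156), 81.0 in B lymphocytes (11), 76.8 in granulocytes (31) and 31.5 in erythroblasts (21). Each step in this order was beyond counting error except that from B lymphocytes to granulocytes. Tap2 (ENSMUSG00000024339, chr17:34203527-34216321, forward strand), the partner of Tap1 in the transporter, stood at 165 CPM in progenitor/stem cells (138 UMIs), 84.8 in T lymphocytes (17), 81.0 in B lymphocytes (11), 59.5 in granulocytes (24) and 13.5 in erythroblasts (9). Here the progenitor/stem cells were 1.95-fold above the T lymphocytes (1.17 to 3.44), whereas for Tap1 the T lymphocytes were 1.52-fold above the progenitor/stem cells (1.10 to 2.07). Both directions held under each of 5 scalings to mouse genes. Scaled to ERCC, ratios in T lymphocytes moved down by 0.89. This is more than the log2 ratio of 0.61 for Tap1, so the direction of Tap1 was then reversed, while that of Tap2 held.

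Tapbp (ENSMUSG00000024308, chr17:33915899-33929292, forward strand) stood at 344 CPM in T lymphocytes (69 UMIs), 198 in granulocytes (80), 191 in B lymphocytes (26), 146 in progenitor/stem cells (122) and 118 in erythroblasts (79). The T lymphocytes were 1.74-fold above the granulocytes (1.24 to 2.43), and no other neighbours in the order differed beyond counting error. In erythroblasts the log2 ratio of Tapbp to the progenitor/stem cells was -0.30 (-0.73 to 0.12), and it turned to 0.67 by the median of ratios, against -2.57 for Tap1 and -3.61 for Tap2. As a group, Tap1, Tap2 and Tapbp had a log2 ratio of 0.52 (0.23 to 0.80) in T lymphocytes, -0.50 (-0.96 to -0.06) in B lymphocytes and -1.61 (-1.93 to -1.30) in erythroblasts. In granulocytes it was -0.57 (-0.87 to -0.29), which turned to 0.20 with TMM factors and 0.36 by the median of ratios. Exons of Tap1 overlap those of Psmb9 by 212 bases on the opposite strand, those of Tapbp overlap the antisense gene Gm19412 by 904 bases and Zbtb22 on the same strand by 149, and those of Tap2 overlap Gm15821 and Gm20496. The use of strand in the counting is not given in the sources used here, so reads from these stretches cannot be told apart.

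The chaperones Calr and Pdia3 were highest in progenitor/stem cells. Calr (ENSMUSG00000003814, chr8:84841850-84846934, reverse strand) stood at 538 CPM there (449 UMIs), 344 in T lymphocytes (69), 231 in erythroblasts (154), 181 in granulocytes (73) and 162 in B lymphocytes (22). It was the member for which the erythroblasts were not lowest. The progenitor/stem cells were 1.56-fold above the T lymphocytes (1.21 to 2.04) and these 1.49-fold above the erythroblasts (1.11 to 1.99), and the last 3 populations did not differ from their neighbours beyond counting error. Pdia3 (ENSMUSG00000027248, chr2:121413775-121438687, forward strand) stood at 188 CPM in progenitor/stem cells (157 UMIs), 175 in T lymphocytes (35), 116 in granulocytes (47), 103 in B lymphocytes (14) and 55.5 in erythroblasts (37). No step in this order was beyond counting error, and by the median of ratios the T lymphocytes stood above the progenitor/stem cells by 0.07 on the log2 scale, while its ends were 3.39-fold apart (2.36 to 4.99). Calr and Pdia3 also fold glycoproteins other than class I. Together their log2 ratio to the progenitor/stem cells was -1.45 in B lymphocytes, -1.29 in granulocytes, -1.34 in erythroblasts and -0.48 in T lymphocytes, each interval was below 0, and the directions held under the 5 scalings.

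The window upstream of Calr, a gene that answers to stress in the endoplasmic reticulum, is shown for the ER stress response element, CCAAT and CCACG with 9 bases of any kind between, which 0.113% of all windows held on either strand. It is read on the other strand, in capitals, at 162 to 144 bases before the start, in chr8:84846935-84847181 on the reverse strand (RefSeq, GRCm38.p6).
Calr: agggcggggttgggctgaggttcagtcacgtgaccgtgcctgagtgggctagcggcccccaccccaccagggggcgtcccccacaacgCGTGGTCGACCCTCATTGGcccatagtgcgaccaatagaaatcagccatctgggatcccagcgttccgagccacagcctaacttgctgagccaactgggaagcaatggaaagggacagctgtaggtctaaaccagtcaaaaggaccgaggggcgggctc
The element holds a CCAAT by its definition, so the CCAAT hit at 148 to 144 is part of it. The other 6 windows did not hold the element.

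Counted against the progenitor/stem cells with a 2-fold threshold in CPM, most members were lower in erythroblasts alone. In erythroblasts all 8 had a log2 ratio below 0 and 7 were at least 2-fold lower (Tapbp was the exception, and H2-D1, with 39 UMIs, was under the minimum of 50 UMIs for the background), where 40.9% of 4792 genes were at least 2-fold lower and 14.8% higher. The median over the 8 members was -2.10, against -0.73 over all genes. These counts and shares are in CPM and depend on the scale. With TMM factors, which move each erythroblast ratio up by 0.86, B2m (-1.18 in CPM), Calr (-1.22) and Pdia3 (-1.76) were no longer 2-fold lower. Tapbp (-0.30 in CPM) was then above 0. In granulocytes 4 of 8 were at least 2-fold lower (H2-K1, Tap1, Tap2 and Calr) and none was higher, where 42.7% of 4440 genes were lower and 13.7% higher, so the share of members is close to that of all genes. The median was -0.99 against -0.76. In B lymphocytes 3 of 8 were at least 2-fold lower (Tap1, Tap2 and Calr) and H2-D1, with 46 UMIs, was 2.17-fold higher (1.02 to 4.29), where 27.9% of 3793 genes were lower and 6.56% higher. In T lymphocytes Tapbp, at 2.36-fold (1.73 to 3.19), was the 1 member at least 2-fold higher and none was lower, where 8.35% of 4060 genes were higher and 17.8% lower. The 4 comparisons share the progenitor/stem cells. Without the 4 B lymphocyte wells with such Gr1 or CD3 fluorescence, the heavy chains stood at 245 CPM and B2m at 2527 CPM over 40 wells, against 236 and 2474 with them.

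**Figure D4:**
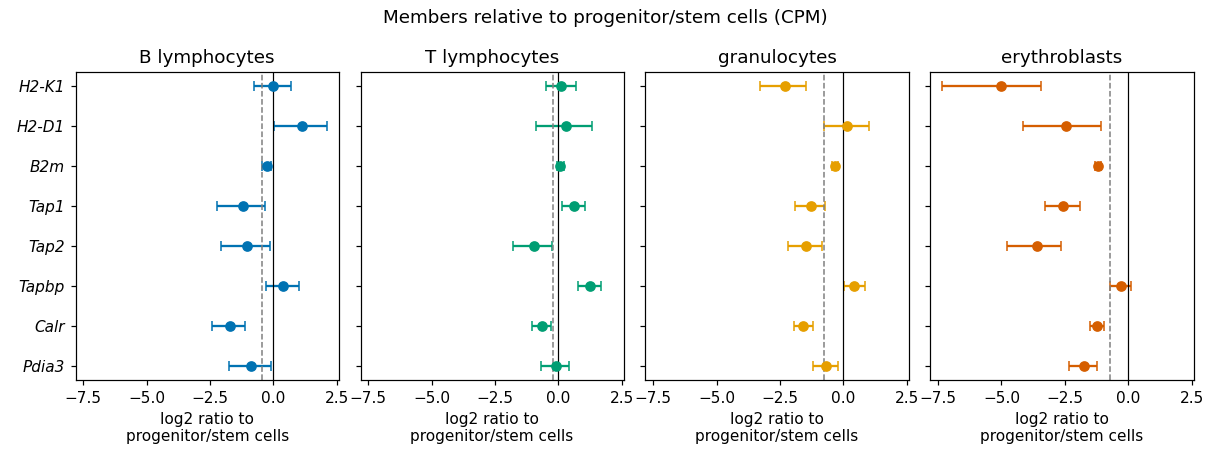
Log2 ratio of CPM of each member to the progenitor/stem cells, with bars for 95% exact intervals. The solid line is 0 and the dashed line the median over all genes (-0.44, -0.22, -0.76 and -0.73 from left to right), and H2-K1 in erythroblasts lies farthest out at -5.03.

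The other genes of the pathway were followed by a list of 38, of which 36 were in the table and 28 had at least 50 UMIs in all wells. Of the proteasome genes, all 5 were at least 2-fold below the progenitor/stem cells in erythroblasts, with a median log2 ratio of -3.09, where 40.9% of all genes were as low and their median was -0.73. Psmb10, an immunoproteasome subunit, was at -5.17 (-8.24 to -3.27; 2 against 90 UMIs), Psmb8, another, at -4.59 (15.0 against 362 CPM) and Psmb9 at -3.09 (18.0 against 153 CPM). Psme1 and Psme2, which make the proteasome activator, were at -1.99 and -1.92. In T lymphocytes Psme2, 1 of 5, was higher, at a log2 ratio of 1.75 (210 against 62.3 CPM), and no proteasome gene was 2-fold lower. Of all genes 8.35% were higher and 17.8% lower there. In granulocytes Psmb8, Psmb9 and Psme1 were between -1.04 and -1.06, which became -0.11 to -0.13 by the median of ratios. In CPM these are 3 of 5 genes at least 2-fold lower, where 42.7% of all genes were. In B lymphocytes Psmb9 was at -1.21 and Psme1 at -1.07, 2 of 5 at least 2-fold lower, where 27.9% of all genes were.

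Among 12 class I-like and nonclassical genes, H2-T23, H2-T22, H2-Q4, H2-Q6 and H2-Q7 had enough UMIs to be compared in erythroblasts, and each was at least 2-fold lower there (log2 ratios from -5.02 for H2-Q6, with 2 UMIs and an interval of -8.09 to -3.12, to -2.20 for H2-T23), where 40.9% of all genes were. In granulocytes H2-Q4, H2-Q6 and H2-Q7 were at -4.27 (-7.34 to -2.37), -4.29 (-7.36 to -2.39) and -3.18, with 2 UMIs each for H2-Q4 and H2-Q6, and H2-T22 was at -1.05, while H2-Q10, the gene of a secreted class I-like molecule, was at 116 CPM against 8.39, a log2 ratio of 3.80. These are 4 of 6 genes at least 2-fold lower and 1 higher, where 42.7% of all genes were lower and 13.7% higher. Classical and nonclassical genes thus did not move as 1 block in granulocytes, where H2-D1 was at 0.13. In T lymphocytes H2-T22 was higher, at 1.80 (250 against 71.9 CPM), and H2-Q6 lower, at -1.70. That is 1 of 5 genes each way, where 8.35% of all genes were higher and 17.8% lower. In B lymphocytes none of 6 was 2-fold apart, where 27.9% of all genes were lower and 6.56% higher. H2-T24, named after its values were seen and under the minimum in each comparison, went the other way: its log2 ratio was 3.06 (1.31 to 5.46) in erythroblasts and 3.79 (2.03 to 6.18) in granulocytes, with 20 UMIs in each against 3, and 3.47 (1.41 to 6.02) in T lymphocytes, with 8 UMIs. Some 3' ends in this family are not unique. Of the 50-base words there, 59.2% in H2-T22 (with H2-T10) and 14.9% in H2-Q7 (with H2-Q5 and H2-Q10) occur in another gene. For H2-T23, H2-Q6 and H2-Q4 it was 38.1%, 35.9% and 33.7%, with 83, 17 and 55 other genes. These include genes outside the family, such as Rab33b, Efr3a and Olfr1238. The levels of all these H2 genes are thus uncertain, whereas H2-Q10 shared 0.443%.

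Of the regulators, Nlrc5, the class I transactivator, was at 190 CPM in T lymphocytes, 58.7 in progenitor/stem cells, 29.5 in B lymphocytes, 9.91 in granulocytes and 7.50 in erythroblasts. T lymphocytes came first in this order, as for H2-K1, B2m, Tap1 and Tapbp. For H2-K1 and B2m their lead over the progenitor/stem cells was not beyond counting error. The other members went otherwise: H2-D1 was highest in B lymphocytes, and Tap2, Calr and Pdia3 were highest in progenitor/stem cells. The levels in B lymphocytes, granulocytes and erythroblasts rest on 4, 4 and 5 UMIs, so the order of granulocytes and erythroblasts is not resolved. Irf1, an interferon-induced transcription factor, was at 215 CPM in T lymphocytes, 129 in granulocytes, 103 in B lymphocytes, 93.4 in progenitor/stem cells and 7.50 in erythroblasts. In T lymphocytes Nlrc5, Irf1 and Stat2, 3 of the 5 regulators with enough UMIs, were at least 2-fold higher than in progenitor/stem cells and none was 2-fold lower, where 8.35% of all genes were higher and 17.8% lower. In erythroblasts Nlrc5, Irf1 and Rela, 3 of 4, were at least 2-fold lower, and in granulocytes Nlrc5, 1 of 4, was, where 40.9% and 42.7% of all genes were. Of 10 trimming and quality control genes, 4 of the 8 with enough UMIs were at least 2-fold lower in erythroblasts and 3 of 9 in granulocytes. It was 3 of 8 in B lymphocytes and 1 of 9 in T lymphocytes. Of all genes 40.9%, 42.7%, 27.9% and 17.8% were as low in that order, so these shares are not far from those of all genes. Erap1, the peptide-trimming aminopeptidase, was lower in erythroblasts (-2.80), granulocytes (-2.59) and B lymphocytes (-2.24, -4.54 to -0.64, with 3 UMIs). P4hb and Pdia6, disulphide isomerases, were lower in erythroblasts and B lymphocytes, and P4hb also in T lymphocytes (-1.05, -1.84 to -0.34). The others were Hsp90b1 (-1.34) in erythroblasts and Tapbpl (-1.24) and Canx (-1.46) in granulocytes. Hspa5, the chaperone BiP, was between -0.46 and 0.05 in CPM in the 4 populations, but at 1.02 in erythroblasts by the median of ratios. In CPM no gene of this group with enough UMIs was 2-fold higher, whereas by the median of ratios Uggt1 was at 1.25 in granulocytes (1.09 with TMM factors) and Hsp90b1 at 1.04 in B lymphocytes.

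Within the granulocytes the wells were split by their own index fluorescence for Gr1, at the median of 18601, into 48 Gr1-high and 48 Gr1-low wells, of which 9 lay within 10% of the median. H2-D1 gave 13 UMIs in the Gr1-high and 5 in the Gr1-low wells (79.0 against 20.9 CPM, log2 ratio 1.92, interval 0.34 to 3.76), and the heavy chains together 19 against 11 UMIs (1.33, 0.18 to 2.55). B2m was lower in the Gr1-high wells, at 1976 against 2661 CPM (-0.43, -0.63 to -0.23). Calr, at 109 against 230 CPM, and Pdia3, at 66.9 against 151, were lower too, at -1.11 together (-1.77 to -0.49). Of 1074 genes 17.2% were at least 2-fold lower and 8.29% higher in the Gr1-high wells, where Calr (73 UMIs) and Pdia3 (47 UMIs, under the minimum) were at least 2-fold lower and H2-D1 (18 UMIs, under the minimum) was higher. Tap1, Tap2 and Tapbp differed by -0.23 (-0.76 to 0.29).

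The monocyte and macrophage genes moved with this split, at 2184 CPM (522 UMIs) in the Gr1-low and 116 CPM (19 UMIs) in the Gr1-high wells. Without the 13 wells that held 5 or more of these UMIs, all of them Gr1-low, the log2 ratio was -0.06 (-0.29 to 0.17) for B2m, 1.77 (0.30 to 3.54; 19 against 5 UMIs) for the heavy chains and -0.83 (-1.55 to -0.13) for Calr and Pdia3. The difference in B2m was thus no longer beyond counting error, while those of the summed heavy chains and of Calr and Pdia3 summed were. Of the chaperones singly, Calr was at -0.90 with an interval that ended just below 0 (-0.008), and Pdia3 at -0.70 (-1.95 to 0.50) was no longer beyond counting error. Over all 48 and 48 wells, those 13 included, H2-Q10 differed in the direction of H2-D1, with 44 UMIs in the Gr1-high and 3 in the Gr1-low wells (4.41, 2.77 to 6.75), and the chaperones Hspa5 (17 against 75 UMIs), Hsp90b1 (0 against 46) and Canx (11 against 46) in that of Calr. Against the progenitor/stem cells, the Gr1-high wells alone gave a log2 ratio of -0.70 for the heavy chains, where all granulocytes gave -1.34. Median depth also differed, at 3094 UMIs in the Gr1-high and 4712 in the Gr1-low wells, and its part in these values was not tested.

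In erythroblasts, 48 CD44-high and 48 CD44-low wells were compared. CD44 is lost as red cells mature. B2m was at 1502 CPM (608 UMIs) in the CD44-high and 1016 CPM (266 UMIs) in the CD44-low wells, a log2 ratio of 0.56 (0.35 to 0.78). The CD44-high wells held 404817 UMIs in all and the CD44-low wells 261911, so log2 ratios of CPM are given beside the UMIs. Tap1 gave 17 against 4 UMIs (1.46), Tap2 7 against 2 (1.18) and Pdia3 28 against 9 (1.01). Calr gave 100 against 54 (0.26), Tapbp 49 against 30 (0.08), H2-D1 2 against 3 (-1.21) and H2-K1 3 against 0. Tap1, Tap2, Pdia3, H2-D1 and H2-K1 were under the minimum of 50 UMIs. B2m was the 1 member whose interval lay off 0. The proteasome genes gave 61 against 18 UMIs (1.13, 0.35 to 1.98). Of 1870 genes, 20.2% were at least 2-fold higher in the CD44-high wells and 0.963% lower. The erythroblast markers took 186756 CPM in the CD44-high and 339333 CPM in the CD44-low wells, and their part in the difference in CPM was not tested.

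In progenitor/stem cells, H2-K1 was higher in the 47 Sca-1-high than in the 48 Sca-1-low wells, at 185 CPM (73 UMIs) against 113 (50 UMIs), a log2 ratio of 0.71 (0.17 to 1.26). H2-D1 was at 43.2 against 38.6 CPM (17 UMIs in each) and B2m at 3072 against 2878, with a ratio of 0.09 (-0.02 to 0.21). No member was 2-fold apart between the Sca-1-high and Sca-1-low wells, where 0.579% of 3281 genes were higher and 0.762% lower. Between the top and bottom parts of 3 equal ones by Sca-1, H2-K1 was at 1.10 (0.41 to 1.83) and B2m at 0.24 (0.09 to 0.38). Tap1, Tap2 and Tapbp together were at 0.51 (0.15 to 0.86), and the intervals of the other members taken singly held 0. No share over all genes was computed for these parts. By c-Kit, Calr was at 598 CPM in the high and 479 in the low wells (0.32, 0.05 to 0.60), and Calr and Pdia3 together at 0.24 (0.003 to 0.47), but between the top and bottom parts of 3 equal ones by c-Kit the intervals held 0, at 0.25 (-0.08 to 0.59) and 0.17 (-0.12 to 0.46). By FSC-A no member differed beyond counting error in progenitor/stem cells or in B lymphocytes, and none by CD3 in T lymphocytes. B2m in the CD3-high and CD3-low T lymphocyte wells was at 3235 and 3062 CPM (0.08, -0.15 to 0.31). With 7 splits of 8 members, some intervals can lie off 0 by counting error alone. The variance of B2m over the wells of a population was 2.45 to 3.43 times that of counting. Its intervals in these splits are thus too narrow for the spread between wells.

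**Figure D5:**
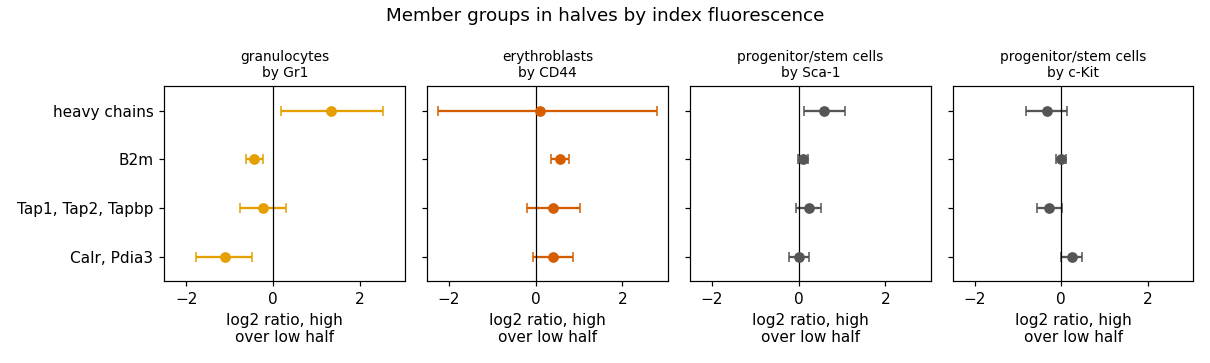
Log2 ratio of CPM of the 4 member groups between wells above and wells at or below the median fluorescence of their population, with bars for 95% exact intervals and a line at 0. By Gr1 the heavy chains lie at 1.33 and Calr and Pdia3 at -1.11, and by CD44 B2m lies at 0.56.

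The genes whose pattern over the 5 populations was closest to that of B2m, among 1913 genes with at least 200 UMIs and by Euclidean distance of centred log2(CPM + 10), were Uba1 (distance 0.24, the ubiquitin-activating enzyme), Morc3 (0.25) and Gnb1 (0.26, a G protein beta subunit). For the summed heavy chains they were Mxd4 (0.32, a MYC antagonist), Kdm5b (0.37, a histone demethylase) and Sptan1 (0.58, a spectrin). B2m itself came at place 276 by likeness to the heavy chains, at 2.03, Tap1 at place 144, and Psmb8 at place 46, at 1.28. With 5 points, such likeness is a description and lists genes for no reason beyond the shape of their levels.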

How the data were processed

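Single cells of 5 populations of 1 mouse were profiled with CEL-seq2, which tags the 3' end of transcripts with a cell barcode and a UMI. The authors deposited raw UMI-deduplicated counts per gene and well, made with *scPipe*, which aligns reads, assigns them to exons, demultiplexes barcodes and collapses UMIs. The sources used here give no aligner version, build, annotation or strand setting for these files. Columns were matched to the labels by well, and 9 columns without a matching label were set aside. Symbols and coordinates came from GENCODE M21 (GRCm38) and upstream windows from RefSeq (GRCm38.p6), and neither may be the build behind the counts. A window was found for 7 of the 8 members.

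UMIs were summed per population and scaled to CPM on the UMIs on mouse genes. With 1 sample per group there was no test, and edgeR 4.0.16 (R 4.3.3) gave TMM factors only. Intervals are 95% exact Poisson (sums), exact binomial (shares) or exact conditional binomial (ratios). The background is the share of genes, with at least 50 UMIs in a pair, at least 2-fold apart, with sums under 3 UMIs set to 3. Shares of wells were thinned to 1000 UMIs with a fixed seed. In simulated sums with known ratios, 95.8% to 96.4% of intervals held the true ratio in the 4 comparisons with the progenitor/stem cells (3793 to 4792 genes). These sums were drawn with counting error alone, so they check the calculation and not how well intervals hold for these wells. Over the wells, the variance of B2m was 2.45 to 3.43 times that of counting. Depth limits the heavy chains most, with 269 UMIs in all. Doublets were not called, since 1 cell was sorted per well.

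The members, lists and splits were chosen with earlier results of these data known. Genes named are the members, pathway genes with at least 50 UMIs and the 3 genes most like B2m or the heavy chains. The alternatives changed the scaling (the mean over wells, a denominator without Gm42418, haemoglobin, S100a8 and S100a9, TMM factors, the median of ratios as in size factors, and ERCC), the wells, the minimum, the thinning and the splits. The Gr1-high wells alone, the granulocytes without the 13 wells with 5 or more monocyte marker UMIs and 2 motifs were chosen with the data in view. Python 3.11.15, numpy 2.4.6, pandas 2.3.3, scipy 1.17.1 and matplotlib 3.10.9 were used.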

Additional observations from a re-analysis of the deposited data

How the results depend on the processing

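Values are log2 ratios. For the 16 ratios of the 4 member groups to the progenitor/stem cells, leaving out shallow or ERCC-rich wells, the 4 B lymphocyte wells with Gr1 or CD3 fluorescence at the level of granulocytes or T lymphocytes, or the well with the most UMIs of the group left each within its interval. The heavy chains in erythroblasts were within theirs under 8 other settings. As the mean over wells, B2m was at -0.12 in T lymphocytes, -0.47 in granulocytes and -1.32 in erythroblasts. Without the most abundant genes in the denominator, B2m was at -0.068 (B lymphocytes), -0.088 (granulocytes) and -0.86 (erythroblasts), and in erythroblasts Tap1, Tap2 and Tapbp were at -1.28 and Calr and Pdia3 at -1.02. With TMM factors the granulocytes were at -0.57 (heavy chains), 0.45 (B2m, reversed), 0.20 (Tap1, Tap2 and Tapbp, reversed) and -0.52 (Calr and Pdia3), and the erythroblasts at -0.32, -0.75 and -0.48 for the last 3 groups. By the median of ratios the granulocytes were at -0.41, 0.61 (reversed), 0.36 (reversed) and -0.36, the erythroblasts at -0.21, -0.64 and -0.37, and B2m at 0.065 (reversed) in the B and 0.26 in T lymphocytes. Scaled to ERCC, which sets each population against the spike-in of its wells, ratios moved down by 1.32 in B lymphocytes, 0.89 in T lymphocytes, 0.96 in granulocytes and 0.11 in erythroblasts. The 4 groups in order were then at -1.00, -1.59, -1.82 and -2.78 in B lymphocytes, -0.74, -0.81, -0.37 (reversed) and -1.38 in T lymphocytes, and -2.30, -1.28, -1.53 and -2.24 in granulocytes, and B2m was at -1.29 in erythroblasts. With the Gr1-high granulocytes alone, chosen with the data in view, the heavy chains were at -0.70, B2m at -0.59 and Calr and Pdia3 at -2.04. Without the 13 granulocyte wells with 5 or more monocyte marker UMIs, chosen likewise, B2m was at -0.56 and Calr and Pdia3 at -1.59 against the progenitor/stem cells, and B2m at -0.064 between Gr1-high and Gr1-low wells. Between the top and bottom parts of 3 equal ones by fluorescence, B2m was at -0.17 (CD3), 0.24 (Sca-1) and -0.12 (FSC-A, progenitor/stem cells), and Calr and Pdia3 at -0.27 (Sca-1) and 0.30 (FSC-A). Calr and Pdia3 by c-Kit were at 0.17, with an interval that held 0. The heavy chains by CD44 gave no value there, as the lowest part had no UMI. The cause of these changes was not tested beyond the scalings themselves. No paired analysis was possible because the wells carry no replicate number that links populations and no test was made.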
